A study of Mus musculus with 6 samples.

Results

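The genes described here are the translation factors and tRNA enzymes of 2T3 cells, a mouse pre-osteoblast line, measured with expression arrays. They were chosen by symbol, as genes whose symbol begins with Eif or Eef and a digit, genes of aminoacyl-tRNA synthetases, and Etf1, Gspt1 and Dus4l. Of 8841 genes with a probe of a single symbol, 57 met this rule, and 56 of them could be tested. The cells were grown in OptiCells, a type of sealed culture vessel. RNA was taken from 3 static control samples and from 3 samples kept in simulated microgravity on a Random Positioning Machine, a device that constantly reorients the vessel relative to gravity. Both groups shared the cell line and the vessel, so the results describe a single line. The labels do not state how long the exposure lasted.

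Translation uses 3 kinds of protein found in this set. Initiation factors bring the small ribosomal subunit, the initiator tRNA and the capped mRNA together, elongation factors deliver charged tRNAs and move the ribosome along the mRNA, and release factors end the chain. Aminoacyl-tRNA synthetases charge each tRNA with its amino acid, and tRNA-modifying enzymes such as dihydrouridine synthases alter bases of the tRNA. Cells tune the process through kinases that phosphorylate eIF2, which lowers general initiation and favours translation of the transcription factor ATF4, and through eIF4E-binding proteins, which hold the cap-binding factor when mTORC1 is inactive. An osteoblast exports large amounts of collagen, so its translation machinery is heavily used.

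Each array gave 10337 to 10432 values. Values below are probe intensities divided by the median of their array, so 1 is the median probe, and a level of 1 probe is not set against that of another. On static 2 and microgravity 2 fewer probes (6.64% and 3.88%) lay at the floor of 0.1 of the median than on the other arrays (14.7% to 17.5%). Of 9 osteoblast markers measured, Ibsp, Dmp1 and Phex lay under the array median on every array. Pth1r, Alpl and Omd fell in simulated microgravity (ratios of 0.198, 0.211 and 0.181, limma adjusted p of at most 0.0295). Postn, Col1a2 and Col1a1 had ratios of 0.515, 0.436 and 0.612 and did not pass (limma adjusted p of at least 0.0930). A summed level is set mostly by the brightest probes of its list. For the osteoblast list it went from 211 to 275 on static arrays to 73.2 to 119 on microgravity arrays. The part of this change in the results below was not tested. Runx2, Sp7, Bglap and Spp1 were not analysed here. Of 26 markers of other cell types in 4 lists, 19 lay under the array median on every array, including all 7 of endothelium and epithelium, 7 of 8 of skeletal muscle (all but Tnni1), Ptprc, Itgam and Acp5 of the blood list, and Adipoq and Retn of the fat cell list. Lpl, Pparg, Fabp4, Tnni1, Cd14, Calcr and Hba-a1 did not. By limma 0 of the 26 passed the adjusted threshold, and 1, the fat cell marker Lpl (ratio 0.581), had an unadjusted p under 0.05. The summed level was 42.6 to 50.2 on static and 35.5 to 41.0 on microgravity arrays for the fat cell list, 11.9 to 17.9 and 9.31 to 17.5 for the blood list, 0.854 to 0.942 and 0.823 to 1.13 for endothelium and epithelium, and 1.18 to 1.32 and 1.08 to 1.33 for muscle without Tnni1, which has no value on static 2 and microgravity 2. Whether other cells had a part in the results below was not tested. In bulk RNA, fewer cells of a type and less RNA per cell cannot be told apart.

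The promoters of the members with the smallest unadjusted p-values are given first, although of these members only Dus4l passed the adjusted threshold. RefSeq gene starts of build GRCm38.p6 were found for 39 of the 57 members. Of the 9 members with an unadjusted limma p under 0.05, 5 had such an entry, and Wars, Rars, Eef1g and Eif6 are only named. The 250 bases upstream of each start are shown 5′ to 3′ on the gene's strand. They come from chr12:31654827-31655076 (Dus4l, minus strand), chr19:5366563-5366812 (Eif1ad, plus strand), chr13:38659029-38659278 (Eef1e1, minus strand), chr7:126566367-126566616 (Eif3c, minus strand) and chr11:69672424-69672673 (Eif4a1, minus strand). Capitals mark matches on either strand to CACGTG, the E-box bound by Myc and related factors, to CCGGAA, the core bound by ETS factors, or to TGATGNAA, the composite element bound by ATF4 with C/EBP proteins. These motifs did not overlap in the windows shown.
Dus4l: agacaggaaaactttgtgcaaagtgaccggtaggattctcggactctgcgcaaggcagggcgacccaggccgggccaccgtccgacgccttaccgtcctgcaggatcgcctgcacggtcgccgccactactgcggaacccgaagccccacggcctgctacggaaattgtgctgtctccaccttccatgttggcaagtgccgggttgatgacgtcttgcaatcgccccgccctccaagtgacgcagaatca
Eif1ad: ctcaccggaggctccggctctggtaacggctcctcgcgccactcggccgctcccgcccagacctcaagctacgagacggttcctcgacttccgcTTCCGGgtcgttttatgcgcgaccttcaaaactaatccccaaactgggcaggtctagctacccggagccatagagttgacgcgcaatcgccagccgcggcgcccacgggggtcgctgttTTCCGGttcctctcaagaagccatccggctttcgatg
Eef1e1: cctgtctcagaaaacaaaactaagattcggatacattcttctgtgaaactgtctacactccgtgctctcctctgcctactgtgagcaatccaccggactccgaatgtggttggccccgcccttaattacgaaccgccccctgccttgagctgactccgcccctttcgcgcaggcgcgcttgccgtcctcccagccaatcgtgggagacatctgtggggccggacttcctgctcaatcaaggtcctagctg
Eif3c: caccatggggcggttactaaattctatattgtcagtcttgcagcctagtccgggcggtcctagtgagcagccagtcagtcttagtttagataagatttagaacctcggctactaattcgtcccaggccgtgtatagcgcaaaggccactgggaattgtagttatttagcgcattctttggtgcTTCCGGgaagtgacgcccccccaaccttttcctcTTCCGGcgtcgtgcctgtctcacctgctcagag
Eif4a1: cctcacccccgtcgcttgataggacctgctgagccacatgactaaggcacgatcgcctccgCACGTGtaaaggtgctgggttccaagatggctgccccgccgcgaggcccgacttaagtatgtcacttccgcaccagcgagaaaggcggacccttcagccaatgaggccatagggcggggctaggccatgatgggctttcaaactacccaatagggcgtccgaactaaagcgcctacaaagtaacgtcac

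CCGGAA stood on the opposite strand of the Eif1ad and Eif3c windows, at 2 places in each, and CACGTG at 1 place in that of Eif4a1. In the Dus4l and Eef1e1 windows 0 matches to the 3 motifs were found. Among the 39 members with a window, CCGGAA was present for 17 (43.6%), against 20.7% of 7012 other array genes and 13.6% of all 27025 genes. Counted by window, since a gene can have several starts, it was in 32.1% of 53 member windows and 12.0% of all 32851. CACGTG was present for 8 members (20.5%), namely Eef2, Eef2k, Eif3f, Eif3k, Eif4a1, Eif4e, Eif4h and Eif5a, against 9.81% of other array genes and 6.86% of all genes (18.9% of member windows and 6.02% of all windows). TGATGNAA was present for 3 members (7.69%), Eef2k, Eif2s3x and Tars, against 2.72% of other array genes and 3.91% of all genes (5.66% of member windows and 3.45% of all windows). These counts describe letters in a window and were given no test.

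The comparison asks whether the machinery of protein synthesis differed between simulated microgravity and static culture. Dus4l was the member that passed the adjusted threshold, and it rose. Most other members had somewhat higher values in simulated microgravity, without passing. Of the 56 tested, 45 had a log2 change above 0 and 11 below, with a median of 0.25, which is a ratio of 1.19. Over all 8588 genes tested, 56.6% were above 0 and the median was 0.05. Among the 4582 genes whose mean lay above the array median, 57.3% were above 0 (median 0.05), and among the 46 members of that kind 41 were (median 0.27). At an adjusted p under 0.05 (limma, Benjamini-Hochberg over all probes) 1 member, Dus4l, was higher and 0 lower. Dus4l entered the rule by name with its earlier result known, so this count is not comparable with the background. That background was 0.279% of genes in either direction (0.0815% higher, 0.198% lower) and 0.276% of probes. At an unadjusted limma p under 0.05, 9 members were higher and 0 lower, against 5.79% of genes higher and 5.69% lower. The 3 values of one group lay wholly above those of the other in 12 members, 11 higher and 1 lower, against 8.51% of genes higher and 8.07% lower. Of the 55 tested members other than Dus4l, 0 passed by limma. At an unadjusted limma p under 0.05, 8 of these (14.5%) were higher and 0 lower, and without overlap 10 (18.2%) were higher and 1 lower. For members brighter than the array median the share higher without overlap was 23.9%, and for all such genes 12.4%. At an unadjusted limma p under 0.05, 19.6% of these brighter members were higher, Dus4l included, against 8.82% of such genes. The shares given below for roles and lists are set against all genes, dim ones included.

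**Figure D1:**
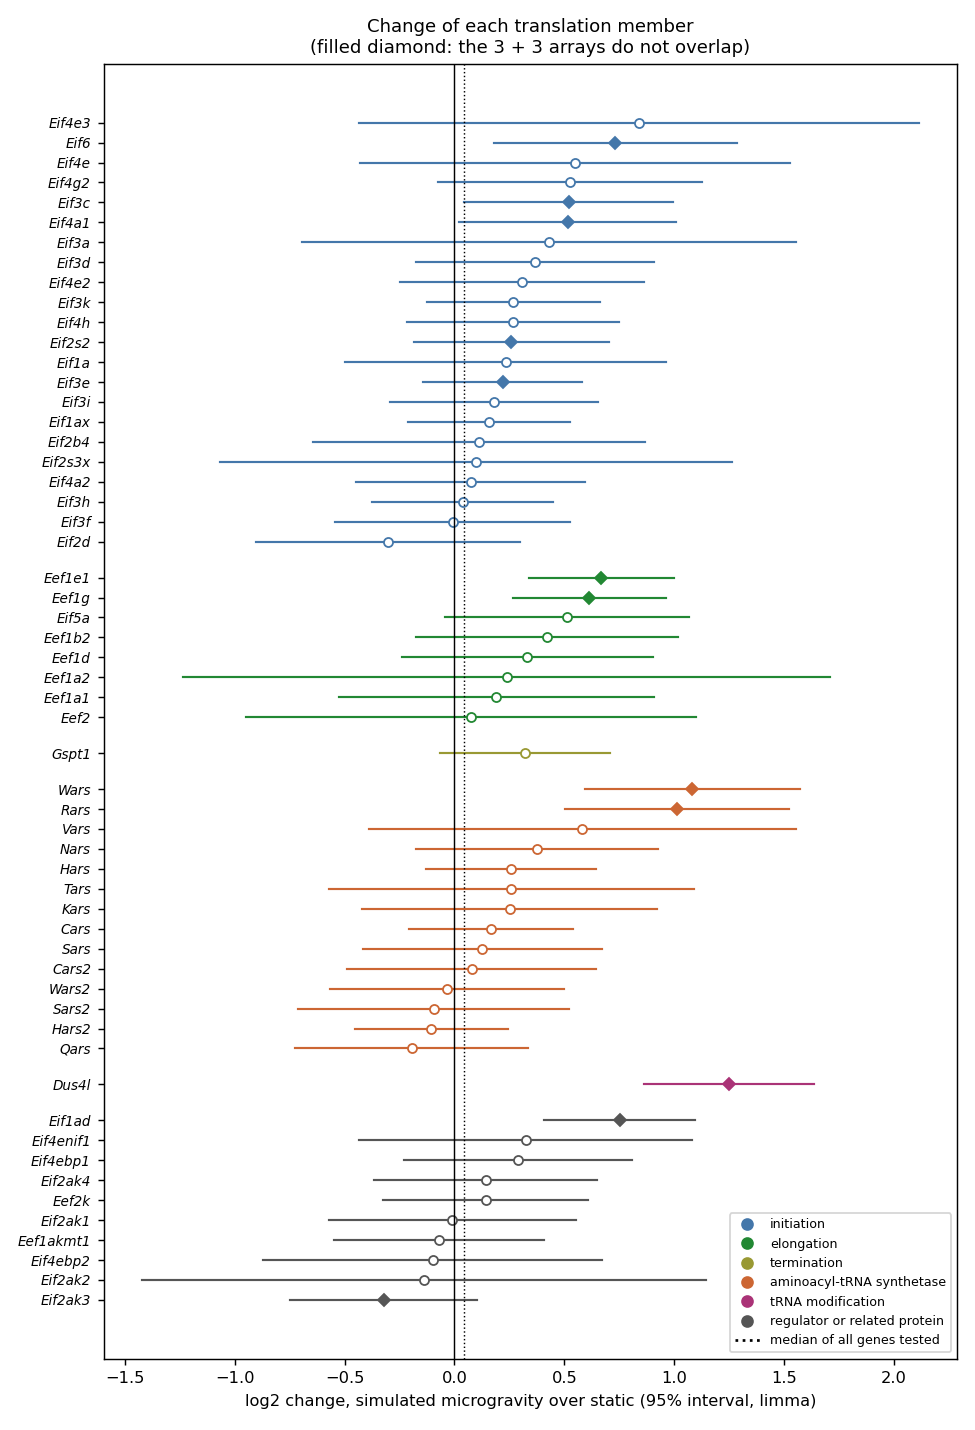
Log2 change of each of the 56 tested members, simulated microgravity over static, with its 95% interval from limma, ordered within roles; filled diamonds are members whose arrays do not overlap between the groups, and the dotted line is the median of all genes tested (0.05). Points lie to the right of 0 for 45 members, and Dus4l, Wars and Rars lie farthest right among those with separated groups.

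Dus4l encodes a member of the family of tRNA dihydrouridine synthases, which reduce uridines of tRNA. It was part of the rule by name, with its earlier result on these arrays known. Its values were 2.00, 2.50 and 2.63 on static 1, 2 and 3 and 5.26, 5.56 and 6.04 on microgravity 1, 2 and 3. All 3 microgravity arrays lay above all 3 static ones. Its level rose 2.38-fold, from 2.38 ± 0.333 (SD, n = 3) to 5.62 ± 0.395. By limma the adjusted p was 0.0498, at a log2 change of 1.25 with an SE of 0.16. The call was lost when any 1 of the 6 arrays, static 1, 2 or 3 or microgravity 1, 2 or 3, was left out (limma adjusted p = 0.148 to 0.258), while the log2 change stayed between 1.13 and 1.33. The call was also lost without the intensity trend (limma adjusted p = 0.0574) and with the replicate number as a block (limma adjusted p = 0.256). With any 1 array left out, and with the block, 0 probes of the whole table passed by limma. These losses were therefore not particular to Dus4l.

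**Figure D2:**
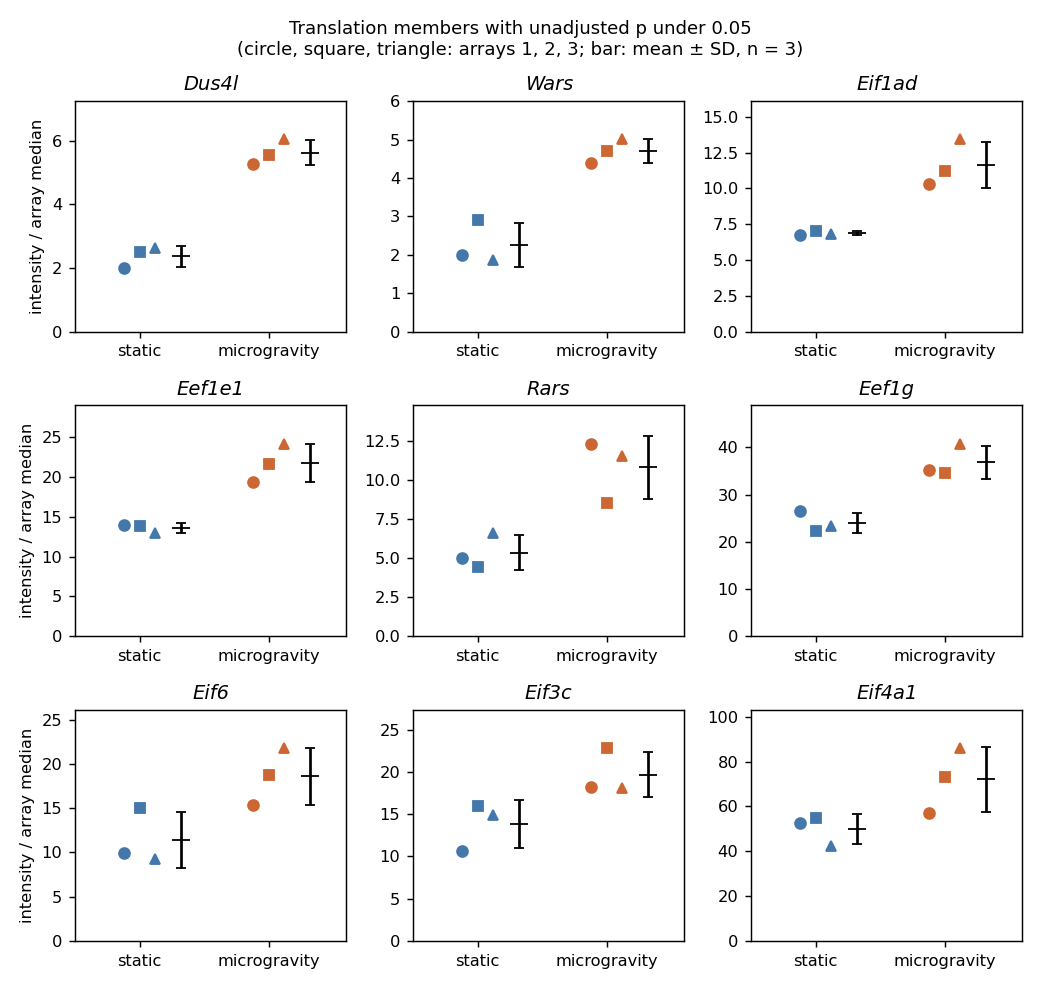
Intensity relative to the array median (linear axes from 0) on each of the 3 static and 3 microgravity arrays for the 9 members with an unadjusted p under 0.05, with group mean and SD beside the points. In each panel the lowest microgravity array lies above the highest static one, by a wide gap for Dus4l (5.26 against 2.63) and a narrow one for Eif4a1 (57.1 against 55.0) and Eif6 (15.3 against 15.0).

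Of 23 initiation factor genes, 22 were tested and 0 passed the adjusted threshold in either direction. At an unadjusted limma p under 0.05, 3 (13.6%) were higher and 0 lower, against 5.79% and 5.69% of genes. Values were higher in 20 and lower in 2, with a median log2 change of 0.26, and 5 (22.7%) were higher without overlap, against 8.51% of genes. Eif6, which keeps the large ribosomal subunit from joining too early, had 9.88, 15.0 and 9.23 on the static arrays and 15.3, 18.8 and 21.8 on the microgravity arrays. Its groups were separated by a small step between static 2 and microgravity 1 (log2 change 0.73, SE 0.23, limma adjusted p = 0.303). Eif4a1, the RNA helicase of the cap-binding complex, had 52.6, 55.0 and 42.5 against 57.1, 73.2 and 85.9, also separated (ratio 1.43, limma adjusted p = 0.440). Eif4g2, a relative of the eIF4G scaffold, had 18.6, 29.5 and 26.2 against 38.9, 42.0 and 26.4. Its microgravity 3 value lay within the static range (log2 change 0.53, 95% interval -0.07 to 1.13).

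Eif4e, which binds the mRNA cap, varied widely within groups. It had 32.7, 12.9 and 26.5 in static cells and 31.4, 23.0 and 48.4 in simulated microgravity. The groups overlapped, and the interval of the log2 change ran from -0.43 to 1.53. Eif4e2, a related cap-binding protein, was the member with 2 probes, and their log2 changes were 0.31 and 0.33. Eif4e3, another relative, was dim, with 0.1 (the floor), 0.391 and 0.105 against 0.364, 0.241 and 0.268, and its interval was wider still (-0.43 to 2.11). Eif2s2, the beta subunit of eIF2, had 86.1, 86.4 and 79.8 against 87.3, 123 and 95.1. The groups just failed to overlap, and microgravity 2 alone lay far above the rest (log2 change 0.26, limma adjusted p = 0.815). The Y-linked Eif2s3y lay between 0.0636 and 0.0880 on all 6 arrays, below the floor, and was not tested.

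The eIF3 complex, a scaffold on the small ribosomal subunit, was represented by 8 subunits, of which 7 had higher values and 0 passed by limma (median log2 change 0.24). At an unadjusted limma p under 0.05, 1 of the 8 (12.5%) was higher, against 5.79% of genes. Eif3c had 10.6, 16.0 and 14.9 on the static arrays and 18.2, 22.8 and 18.0 on the microgravity arrays. Every microgravity value was above every static one (ratio 1.43, limma adjusted p = 0.407). Eif3d, which can itself contact the cap, had 6.40, 9.95 and 5.71 against 8.27, 9.78 and 9.63, and Eif3k had 18.4, 25.3 and 20.3 against 23.4, 27.0 and 26.1. Static 2 lay above all 3 microgravity arrays for Eif3d and inside their range for Eif3k. Eif3h and Eif3f, which carry related protease-like folds, had log2 changes of 0.04 (95% interval -0.38 to 0.45) and -0.01 (-0.54 to 0.53), so a doubling of either lay outside its interval. The 13 initiation factor genes without values by array under the naming rule had log2 changes from -0.30 (Eif2d, an alternative initiator tRNA carrier) to 0.43 (Eif3a). They were Eif1a, Eif1ax, Eif2b4, Eif2d, Eif2s3x, Eif3a, Eif3e, Eif3f, Eif3h, Eif3i, Eif4a2, Eif4e2 and Eif4h, with unadjusted limma p of at least 0.193. Of these, Eif3e was higher without overlap.

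All 8 elongation genes had log2 changes above 0, with a median of 0.38, and 0 passed in either direction. At an unadjusted limma p under 0.05, 2 (25%) were higher, against 5.79% of genes. Leaving out 1 array turned the sign for Eef1a1, Eef1a2 and Eef2. Eef1g, the gamma subunit of the exchange complex that recharges eEF1A with GTP, had 26.5, 22.4 and 23.3 in static cells and 35.1, 34.5 and 40.7 in simulated microgravity. Eef1e1, grouped here by its symbol and known as a member of the complex of synthetases (AIMP3), had 14.0, 13.9 and 12.9 against 19.4, 21.6 and 24.1. Eef1g and Eef1e1 are the 2 genes counted above. Both were clearly separated, at ratios of 1.53 (limma adjusted p = 0.172) and 1.59 (limma adjusted p = 0.124). The 2 other exchange subunits overlapped between groups. Eef1b2 had 26.8, 17.1 and 20.4 against 25.1, 23.5 and 38.0, and Eef1d had 81.8, 75.6 and 53.8 against 73.5, 82.1 and 110.

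Eif5a, the hypusine-bearing factor that helps ribosomes through difficult sequences, had 23.0, 31.0 and 17.4 in static cells and 28.6, 35.1 and 35.6 in simulated microgravity, where only static 2 reached the microgravity range (log2 change 0.51, 95% interval -0.04 to 1.07). Eef1a1, which carries charged tRNA to the ribosome, had 224, 246 and 153 against 169, 297 and 249. Its interval ran from -0.53 to 0.91, and its many processed copies in the genome make the origin of its signal uncertain. Eef1a2, the form of nerve and muscle, had 2.59, 0.538 and 2.45 against 1.29, 2.26 and 1.92. Static 2 was the low one, and the sign of the log2 change (0.24) was opposite to that of the linear means (1.86 and 1.82). Eef2, the factor that moves the ribosome along, had 2.99, 8.74 and 5.70 against 7.49, 6.20 and 3.76, with an interval from -0.95 to 1.10. Gspt1, the release factor eRF3a, had 5.71, 5.24 and 6.82 against 7.84, 7.89 and 6.42, with microgravity 3 inside the static range (log2 change 0.32, 95% interval -0.07 to 0.71). Eif2s1, Eif4g1 and Etf1 were not analysed here.

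Among the 14 aminoacyl-tRNA synthetase genes, 2 (14.3%) were higher at an unadjusted limma p under 0.05, against 5.79% of genes, and 0 passed the adjusted threshold. Values were higher in 10 and lower in 4, and the median log2 change was 0.21. Without microgravity 3 this median was 0.074, and without both static 1 and microgravity 3 it was 0.12. Wars and Rars stood apart from the others. Wars, the tryptophanyl enzyme, which interferon is known to induce, had 2.00, 2.92 and 1.87 on the static arrays and 4.39, 4.70 and 5.01 on the microgravity arrays. Rars, the arginyl enzyme, had 5.01, 4.46 and 6.65 against 12.3, 8.57 and 11.6. Both were separated between groups, with ratios of 2.12 (log2 change 1.08, SE 0.20, limma adjusted p = 0.103) and 2.02 (log2 change 1.01, SE 0.21, limma adjusted p = 0.132). Wars passed with array weights (limma adjusted p = 0.0440), where 115 probes of the whole table passed, against 28 in the main fit.

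The other synthetases overlapped between groups. Vars, the valyl enzyme, had 2.04, 4.72 and 4.54 in static cells and 7.34, 5.75 and 3.47 in simulated microgravity. Nars, the asparaginyl enzyme, had 40.4, 63.3 and 55.3 against 63.8, 82.8 and 58.2. In both, static 1 was the lowest of the 3 static arrays and microgravity 3 the lowest of the microgravity arrays. Tars, the threonyl enzyme, had its lowest values on the same arrays (9.27, 19.2 and 13.8 against 18.5, 21.3 and 10.6), and so did Hars, the histidyl enzyme (12.7, 16.4 and 15.2 against 17.6, 19.8 and 15.5). Kars, the lysyl enzyme, ran the other way, with its lowest values on static 2 and microgravity 2 (21.5, 14.6 and 20.7 against 23.6, 15.4 and 30.1). Sars, the seryl enzyme, had 15.7, 13.1 and 13.1 against 14.5, 11.6 and 20.8. Cars, the cysteinyl enzyme, had a narrow spread in static cells, with 3.55, 3.80 and 3.59 against 4.50, 3.47 and 4.39, and its interval was -0.20 to 0.54. Qars, the glutaminyl enzyme, had 2.84, 4.42 and 2.76 against 2.77, 3.18 and 2.62 (log2 change -0.20).

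Hars2, Sars2, Cars2 and Wars2 encode synthetases of the mitochondria, which charge tRNAs of the organelle. Hars2 had 3.02, 3.50 and 3.33 in static cells and 2.86, 3.31 and 2.99 in simulated microgravity, with a 95% interval of -0.45 to 0.24. Wars2 had 0.821, 1.15 and 0.866 against 0.876, 1.02 and 0.852, and Cars2 had 0.813, 0.925 and 0.640 against 0.809, 0.728 and 0.961. Sars2 was close to the floor, with 0.175, 0.232 and 0.136 against 0.169, 0.132 and 0.204. Their values were higher in 1 of 4, with a median log2 change of -0.06, while those of the other synthetases were higher in 9 of 10, with a median of 0.26. This division was made after the values were seen, and the difference was not tested. The other 10 were not sorted by where in the cell they act. Leaving out 1 array turned the sign for Sars2, Cars2 and Wars2, and for Sars, Tars and Qars among the others.

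Of the 10 regulators and related proteins, 5 had higher and 5 lower values, with a median log2 change of 0.07, and 0 passed the adjusted threshold by limma. At an unadjusted limma p under 0.05, 1 (10%) was higher, against 5.79% of genes. Eif1ad, a protein with the fold of eIF1A, had 6.75, 7.05 and 6.84 in static cells and 10.3, 11.2 and 13.4 in simulated microgravity. Its static values lay close together and well below the others (ratio 1.68, log2 change 0.75, SE 0.14, limma adjusted p = 0.105). The eIF2 kinase gene Eif2ak3, which encodes PERK of the endoplasmic reticulum, was the member lower without overlap, with 3.65, 2.70 and 2.77 against 2.45, 2.20 and 2.58. The step was small (log2 change -0.32, 95% interval -0.75 to 0.10, limma adjusted p = 0.653). Eif2ak4, which encodes the amino acid sensor GCN2, had 1.07, 0.982 and 1.38 against 1.28, 1.37 and 1.12.

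Eif4ebp1, an eIF4E-binding protein and a known ATF4 target, had 35.7, 34.0 and 41.3 in static cells and 44.7, 34.9 and 58.7 in simulated microgravity, and Eif4ebp2 had 0.521, 0.423 and 0.474 against 0.405, 0.310 and 0.677. Both overlapped. Eif4enif1, which carries eIF4E into the nucleus, had 4.12, 2.25 and 4.84 against 5.05, 3.44 and 5.06, lowest on array 2 of each group. Eef2k, the kinase that inactivates eEF2, had 0.771, 0.844 and 0.853 against 0.982, 0.814 and 0.934 (95% interval -0.32 to 0.61). The 3 not given by array, Eif2ak1, Eif2ak2 and Eef1akmt1, a methyltransferase of eEF1A, had log2 changes of -0.14 to -0.01.

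Members differed between arrays of 1 group as well as between groups. Deviations from the group means correlated between static 1 and microgravity 3 at 0.78 over the 56 members and at 0.68 over the other genes, and between static 2 and microgravity 2 at 0.39 and 0.46. These are descriptions across genes, which are not independent replicates and share the arrays' depth and scaling. Over 9944 probes with all values, 52.7% of the variance within groups lay on 1 axis. Among the members, Eif2s3x, Eif3a, Eef2 and Vars were lower on static 1 than on static 2 (log2 differences of -1.43, -1.22, -1.55 and -1.21) and lower on microgravity 3 than on microgravity 2 (-1.49, -1.31, -0.72 and -0.73). Eif4e had the opposite differences, 1.34 and 1.07, and Kars had 0.57 and 0.97. These genes were named after their values were seen. Differences of the same sign on both sides were found for 38 of 56 members (67.9%) and for 69.3% of other genes. The part of this axis in the results above was not tested. Without static 1 and microgravity 3 the median log2 change of the members was 0.24, and without array 2 of both groups it was 0.27.

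**Figure D3:**
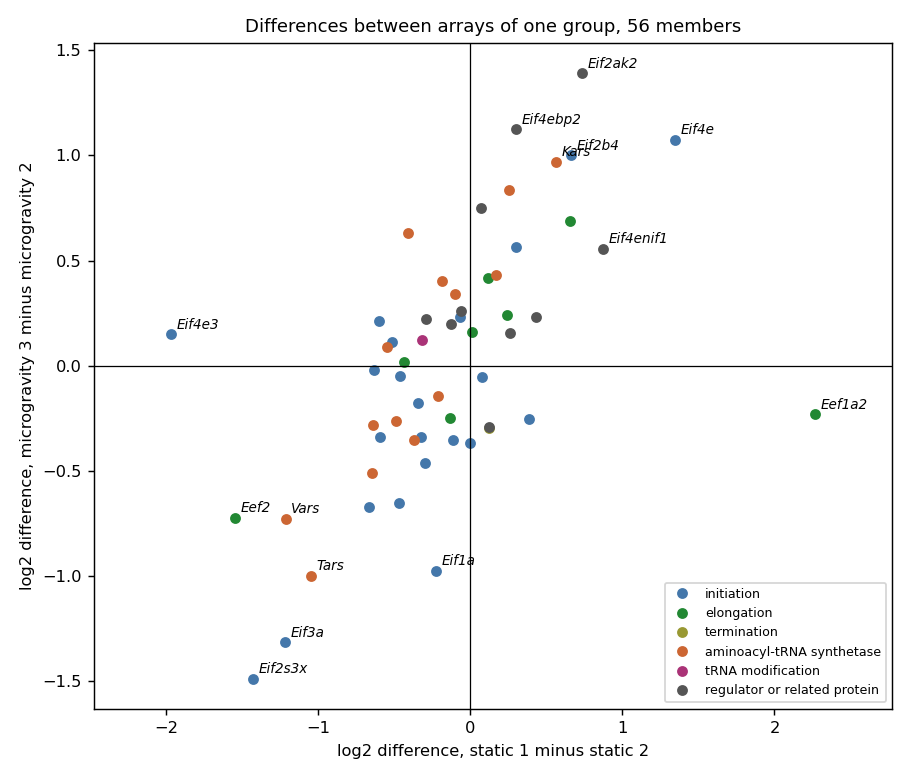
Log2 difference between static 1 and static 2 (x axis) against that between microgravity 3 and microgravity 2 (y axis) for the 56 members, coloured by role; names are given to members beyond 0.85 on either axis. Eif2s3x and Eif3a lie at the lower left and Eif4e at the upper right, while Eef1a2 and Eif4e3 lie far from 0 on the static axis alone.

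Other genes of the pathway came from 5 lists. Of 110 measured, 2 rose, 0 fell and 108 did not pass (background 0.279%), with 90 above 0 and a median log2 change of 0.26. Both genes that rose belong to the list of eIF2 phosphorylation and the ATF4 response. Both results were known before the list was drawn up, so their count is not comparable with that background. Fgf21, a secreted hormone, had 0.422, 0.399 and 0.412 on the static arrays and 1.22, 1.19 and 1.57 on the microgravity arrays, 3.20-fold higher (limma adjusted p = 0.0464). Cth, which makes cysteine, had 5.52, 5.90 and 5.95 against 13.0, 12.7 and 17.6, 2.46-fold higher (limma adjusted p = 0.0464). Neither passed when any 1 array was left out, where 0 probes of the whole table passed by limma. In this list 28 of 29 were above 0, and 11 of 29 (37.9%) were higher without overlap, against 8.51% of genes. These counts include Fgf21 and Cth, so they too are not comparable with the share over all genes. Ppp1r15a, a subunit that brings the phosphatase to eIF2, had 3.46, 4.10 and 3.94 against 6.44, 7.76 and 8.84 (limma adjusted p = 0.0915), and Phgdh, which starts serine synthesis, had a ratio of 1.67 (limma adjusted p = 0.132). Atf4 itself (ratio 1.09), Ddit3 (ratio 1.10) and Cebpb (log2 change 2.6e-05) overlapped between groups, with limma adjusted p of at least 0.898.

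Of 35 genes of the synthetase complex, tRNA processing and tRNA modification, 0 passed by limma and 30 were above 0 (median 0.27). At an unadjusted limma p under 0.05, 7 (20%) were higher and 1 lower, against 5.79% and 5.69% of genes. Without overlap 14 were higher and 1 lower, against 8.51% and 8.07% of genes. The pseudouridine synthases Pus7 and Pus1 had 2.03, 2.15 and 2.29 against 3.79, 4.40 and 3.82 (limma adjusted p = 0.0891) and 5.89, 6.53 and 5.53 against 7.73, 8.44 and 8.49. Pus7 passed by limma with array weights, where 115 probes of the whole table passed, against 28 in the main fit. The tRNA 3′ processing nuclease Elac2 and the tRNA methyltransferase Mettl1 had ratios of 1.38 and 1.75. Of 21 genes on the list of auxiliary initiation, release and ribosome rescue factors, 0 passed by limma and 20 were above 0 (median 0.21). At an unadjusted limma p under 0.05, 4 (19.0%) were higher, against 5.79% of genes. The 1 below 0 was Nat1 (log2 change -0.19), at the floor on every array but static 2. It is an arylamine N-acetyltransferase and not a translation factor. Abce1, which splits ribosomes after termination, had 17.4, 17.9 and 22.9 against 33.6, 34.8 and 29.1 (limma adjusted p = 0.141). Gtpbp2, a GTPase of ribosome rescue, the rescue factor Hbs1l (on 5 arrays) and the poly(A)-binding protein Pabpc1 had ratios of 1.57, 1.59 and 1.39.

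Of 6 measured genes on the list of mitochondrial translation, 0 passed by limma and 5 were above 0. At an unadjusted limma p under 0.05, 2 (33.3%) were higher, against 5.79% of genes. The elongation factor Tsfm had 4.28, 4.24 and 4.34 against 5.53, 6.36 and 5.66. Tfb2m, on this list although it is known as a transcription factor of the organelle, had a ratio of 1.40, the tRNA-modifying GTPase Gtpbp3 of 1.23 and Gatc, a subunit of the enzyme that makes glutaminyl-tRNA, of 1.52. The list of mTORC1 and cap-binding signalling did not share this direction, with 7 of 19 above 0 and a median of -0.06, and 0 passed by limma. At an unadjusted limma p under 0.05, 1 (5.26%) was higher, near the 5.79% of all genes. Its member with the smallest p was Ddit4, an mTORC1 inhibitor and a gene of stress responses, with 3.02, 4.25 and 3.87 against 5.73, 5.83 and 4.93 (limma adjusted p = 0.284). Rheb, the GTPase that activates mTORC1, had a ratio of 1.30, Tbc1d7 of 0.769 and Rraga of 1.21.

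**Figure D4:**
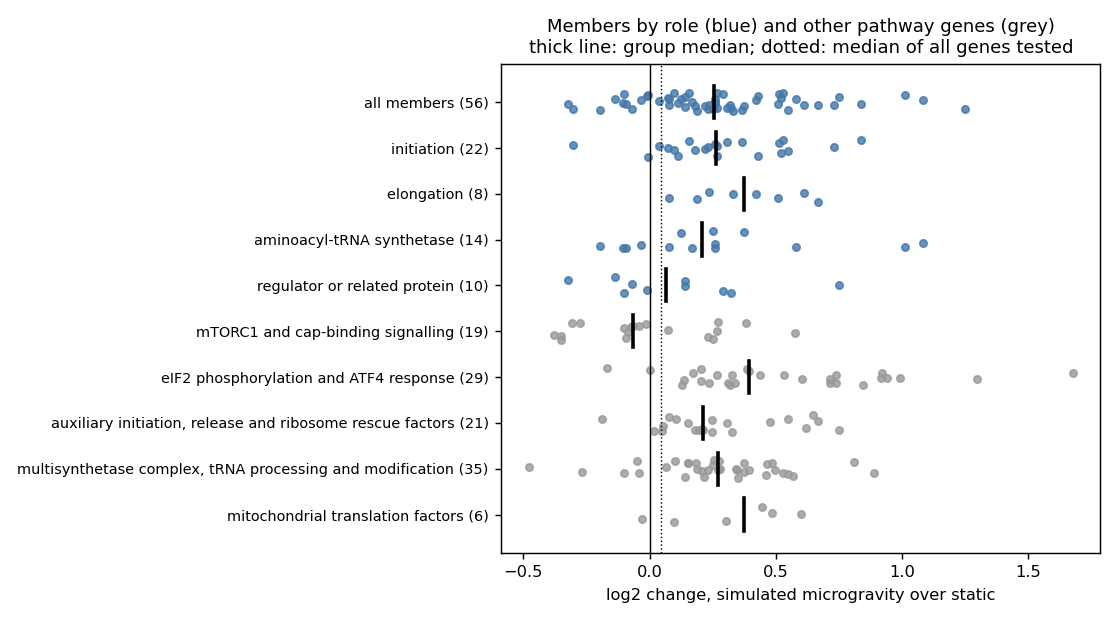
Log2 change of single genes (points), simulated microgravity over static, for the members as a whole and by role (blue) and for 5 lists of other pathway genes (grey), with the number tested in brackets, the group median as a thick line and the median of all genes tested (0.05) as a dotted line. Medians run from -0.06 for mTORC1 signalling to 0.40 for the ATF4 response, with 0.26 for initiation and 0.38 for elongation; Dus4l and Gspt1 appear only among all members.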

How the data were processed

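The authors deposited 1 table of intensities on a linear scale for 10500 probes and 6 arrays. The labels state neither its scaling nor the scanner. Intensities were expressed relative to the median of their array, raised to a floor of 0.1 where lower, and converted to log2. A probe needed at least 2 values per group and 1 array above the floor, which removed 354, and 10146 were tested with limma 3.58.1 in R 4.3.3 (lmFit, eBayes with an intensity trend, 2-sided, Benjamini-Hochberg over all probes, threshold 0.05). Intervals cover 95%. Precision is limited by having 3 arrays in each group. The labels do not say whether samples were separate cultures, so the p-values reflect sample-to-sample spread that may be only technical.

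Symbols came from the platform annotation. A gene was represented by its probe with the highest mean. Members and lists were chosen with earlier results of these data known. Values by array are given for Dus4l, all synthetases, 10 further genes fixed by name where measured, and in each other role the up to 6 members with the smallest p, the brightest and the dimmest; of each list up to 4 genes with the smallest p. Other genes are named as lists or after their values were seen. Alternatives covered normalization, floor, filter, variance model, array weights, replicate block, single arrays left out and the probe per gene.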

Additional observations from a re-analysis of the deposited data

How the results depend on the processing

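Of 18 alternatives, those without static 1 and microgravity 3 and without array 2 of both groups were chosen after seeing the data. Over all 18, between 41 (of 46 tested, the dimmest 50% of probes left out) and 48 (of 56) members were above 0, with at least 42 where 56 were tested. Of the members, 6 to 12 were higher and 0 lower at an unadjusted limma p under 0.05. The share of all probes at such a p, in either direction, lay between 7.24% and 15.2%. The median log2 changes lay between 0.19 and 0.27 for all members, 0.19 and 0.31 for initiation factors and 0.07 and 0.30 for synthetases. The median over all probes lay between -0.00898 and 0.0804. The 1 member past the threshold became 2 with array weights, and 0 without the trend, under the replicate block, and in both alternatives that leave out 2 arrays. With any single array left out it was 0 (range 0 to 0). The 2 pathway genes became 3 with array weights (Pus7 added) and 1 without the trend (Fgf21). They became 0 with the block, with any single array left out and with either pair left out. On leaving out the dimmest 50% of probes 1 passed, Cth, while Fgf21 was itself left out as too dim. The 12 members without overlap became 15 to 21 with single arrays left out, 30 without array 2 of both groups and 24 without static 1 and microgravity 3, since fewer arrays overlap less. With every array kept, the count was 10 with quantile normalization, 11 with cyclic loess normalization and 13 with all probes of a gene averaged. The share over all genes under these alternatives is not given here, so these counts are not a result about the members.

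The sign turned in at least 1 alternative for 12 of 40 named members. With array weights the log2 changes were -0.37 for Eef1a2, 0.098 for Sars2 and 0.0024 for Wars2, and a floor of 0.5 gave 0.13 for Eif4ebp2. Without array 2 of both groups they were -0.68 for Eef1a2, -0.024 for Eif2ak4, 0.075 for Eif4ebp2, 0.27 for Sars2 and 0.035 for Wars2. Without static 1 and microgravity 3 they were -0.0040 for Cars2, -0.051 for Eef2 and -0.015 for Sars. With single arrays left out they ran from -0.34 to 0.44 for Eef2, -0.41 to 0.15 for Eif4ebp2, -0.28 to 0.10 for Sars2, -0.068 to 0.20 for Cars2, -0.10 to 0.32 for Sars, -0.13 to 0.12 for Wars2, -0.012 to 0.56 for Tars, -0.51 to 0.63 for Eef1a2, -0.0054 to 0.55 for Eif4enif1, -0.32 to 0.025 for Qars and -0.014 to 0.42 for Eef1a1. The cause was not tested.

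The labels do not say whether the replicate numbers pair the samples. The correlations that follow cannot decide it, since deviations within a group sum to 0. Deviations from the group means of same-numbered arrays correlated at -0.21, 0.46 and -0.18 over probes. With the replicate block 0 probes of the whole table passed, and so 0 members, and Dus4l had an adjusted p of 0.256 by limma.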
